A study of Gallus gallus with 30 samples.

Results

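The collagen genes are the genes of the chicken array whose platform symbol reads COL, a number, A and a number, such as COL2A1. There were 41 of them, measured by 121 probe sets, among 13008 genes with a single symbol on 37693 chicken probe sets. Each was followed by its probe set with the highest mean log2 signal. Collagens are extracellular proteins built of chains wound into a triple helix. The fibrillar collagens form the cables of skin, tendon, bone and cartilage, and the FACIT collagens (fibril-associated, with interrupted helices) sit on the surface of those cables. Type IV collagen forms the sheet-like network of basement membranes, the layer under every epithelium. Other classes span the cell membrane, build beaded filaments around cells, or form hexagonal networks. In the early embryo the first matrix is mostly basement membrane, and fibrous connective tissue, cartilage and bone form later.

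Wild type embryos of the Nera line were collected at 15 stages of the Hamburger and Hamilton (HH) series, from eggs kept at 37.5 degrees. HH1, HH2 and HH4 are stages of the blastoderm and the primitive streak, and HH6, HH8 and HH9 are those of the neural plate and first somites. Organ rudiments and limb buds form at HH11, HH14, HH16 and HH19, and tissues differentiate and mature at HH24, HH27, HH32, HH34 and HH38. Each sample pooled total RNA of mixed-sex whole embryos without yolk and amnion, and each stage had 2 such pools, given by the labels as biological replicates, on 1 array each. All groups share genotype, line and incubation, and the sources used here do not state how many embryos a pool held or which other extraembryonic tissue was left on. In whole embryos, fewer cells of a type and less RNA per cell cannot be told apart.

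Signals are the authors' deposited linear intensities, scaled to the same trimmed mean on all 30 arrays. An array's background was the 95th percentile of its 689 probe sets for other organisms, and it lay between 25.4 and 47.2. Between 31 and 41 of the collagen genes exceeded it on a given array, and 24 did so on all 30. The actin 3' to 5' ratio, a sign of RNA quality, was 2.48 and 2.99 at HH38 against 1.54 to 2.01 at the other stages, so counts of genes that rose or fell from HH16 to HH38 are also given with HH34. Stage values are geometric means of 2 arrays, and changes are log2 differences ± SE from a limma fit over all 29600 probe sets tested, with n = 2 arrays a stage. Adjusted p is limma's, after Benjamini-Hochberg adjustment within the comparison. A gene is said to rise or fall where adjusted p was below 0.05 and the change at least 2-fold. Where 1 or both arrays of the dimmer stage lay below background, background replaces them and the fold is a lower bound, written "at least". The adjusted p beside such a fold belongs to the fitted change of the signals as deposited, and the bound itself was not tested. P-values measure the spread between pools, and 2 arrays a stage limit the precision. Signals of different probe sets are not on a common scale and are not compared. Summed signals of marker lists add such signals, so they mostly follow the brightest members.

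**Figure D1:**
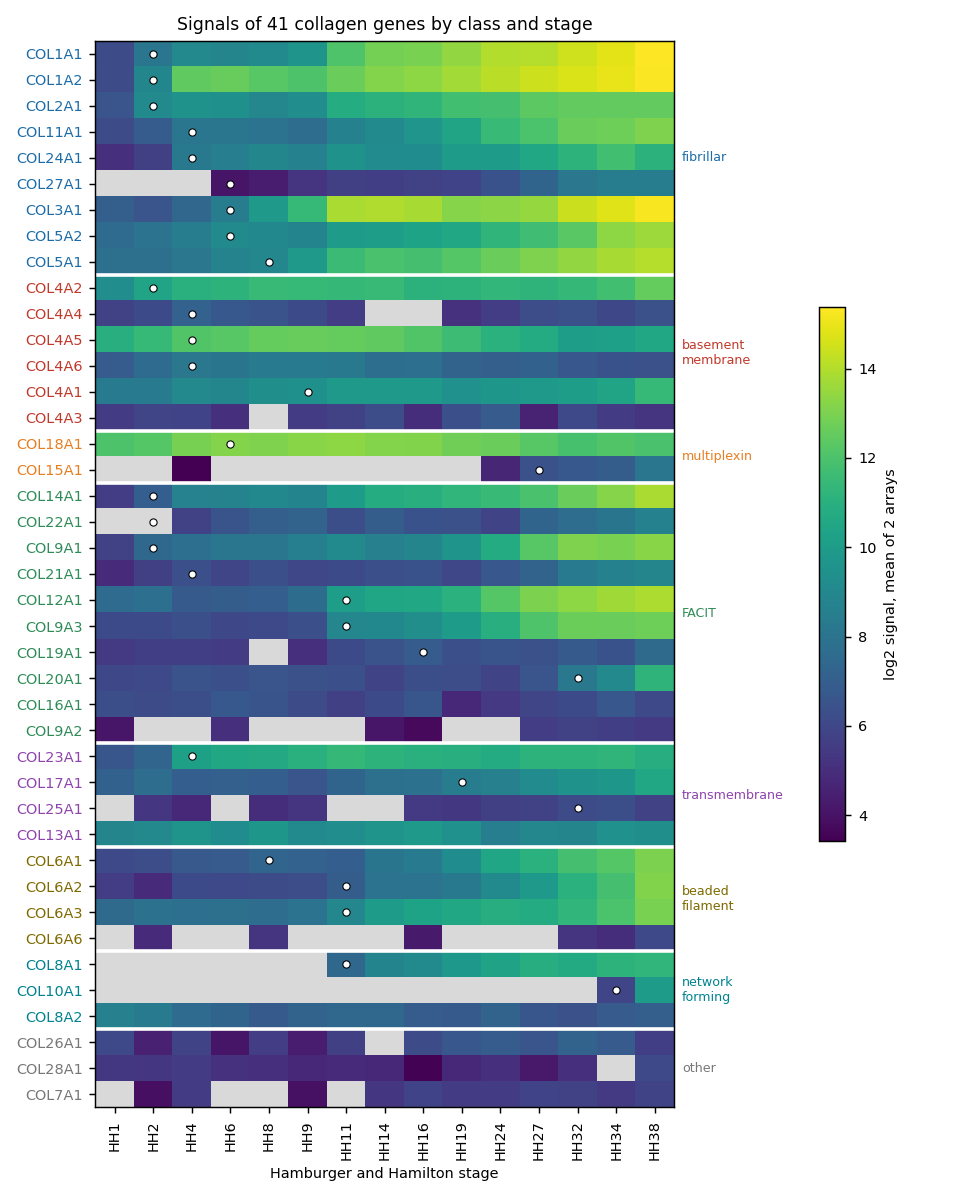
Log2 stage mean signal (colour, mean of 2 arrays) of the 41 collagen genes (vertical axis, grouped by class) at the 15 stages (horizontal axis). Grey cells were below background on both arrays, and a white dot marks the first stage called higher than HH1. Colours compare stages within a gene. The fibrillar genes brighten from left to right, while COL4A5, COL4A6 and COL18A1 are brightest between HH8 and HH11.

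Most collagen genes rose in each part of the course. From HH1 to HH16, 25 of the 41 rose and 2 fell (COL4A4 and COL8A2), where 16.7% of the 12103 genes tested rose and 10.5% fell. From HH16 to HH38, 27 rose and 3 fell (COL4A5, COL4A6 and COL18A1), against 14.5% and 8.92% of all genes. The comparisons share the HH16 arrays. Before adjustment, p lay under 0.05 for 28 higher and 3 lower genes in the first part and for 27 and 3 in the second. The median change of the 41 was 1.76 in the first part and 2.17 in the second, against 0.06 and 0.01 over all genes. With genes below background at their bound the medians of the collagens were 1.44 and 1.87, 2 genes below background at both HH1 and HH16 left out. The highest stage mean was at HH38 for 28 of the 41, against 16% of all genes. With HH38 left out it was at HH34 for 23, against 13.7%. With HH34 in place of HH38, 21 rose and 2 fell, against 11.9% and 5.27% of all genes. The calls that ended were those of COL3A1, COL4A1, COL4A2, COL10A1, COL15A1, COL18A1 and COL28A1. Signals of 34 of the 41 differed between stages by limma's moderated F test, where 82.1% of all genes did. The 7 that did not pass were COL4A3, COL6A6, COL9A2, COL13A1, COL16A1, COL25A1 and COL28A1.

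**Figure D2:**
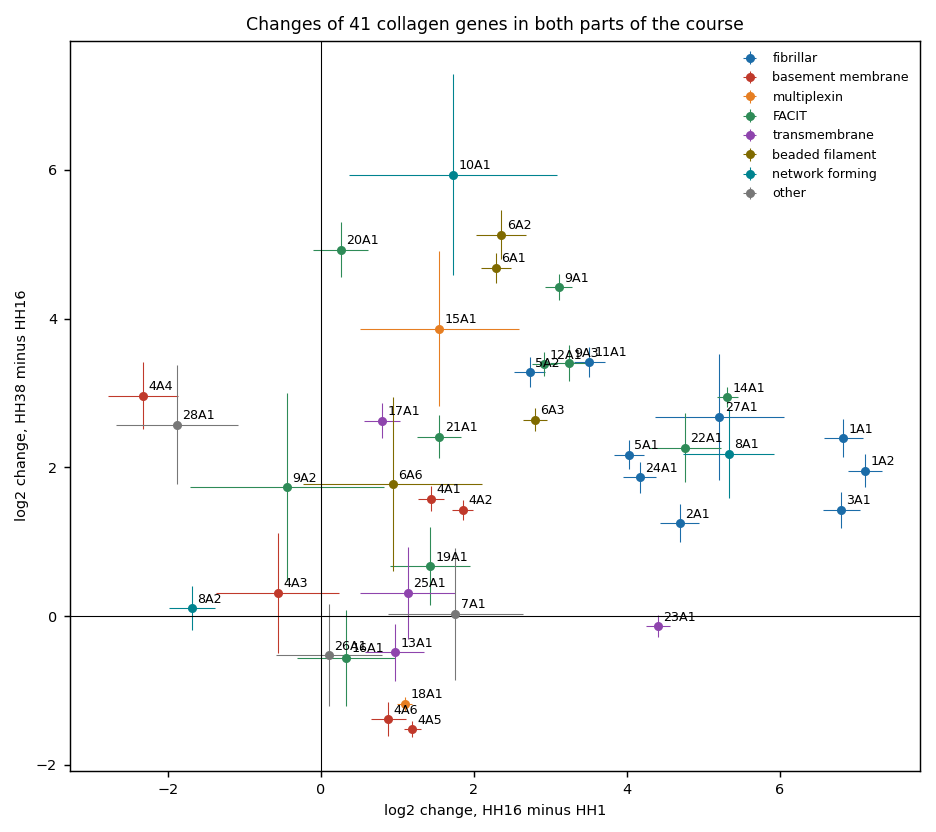
Log2 change of each collagen gene from HH1 to HH16 (horizontal axis) and from HH16 to HH38 (vertical axis), coloured by class and labelled without the prefix COL. Bars are standard errors from limma, n = 2 arrays a stage. All 9 fibrillar genes lie to the upper right, and COL4A5, COL4A6 and COL18A1 lie low on the right. Changes of genes below background at 1 of the stages, such as COL10A1, are fitted values and not bounds.

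All 9 fibrillar genes rose in both parts, with a median log2 change of 4.69 (4.17 with COL27A1 at its bound) and then 2.17. With HH34 in place of HH38, 8 rose in the second part, COL3A1 changing by 0.93, short of 2-fold. The shares of all genes that rose were 16.7%, 14.5% and, to HH34, 11.9%. The COL27A1 rise to HH16 was no longer called when signals were raised to background. COL1A1 and COL1A2 encode the chains of type I collagen, the main protein of skin, tendon and bone. COL1A1 read 53.5 and 93.0 on the HH1 arrays, 8087 and 8009 at HH16 and 40458 and 44314 at HH38. The means by stage were 70.5 at HH1, 277 at HH2, 532 at HH4, 470.2 at HH6, 540.0 at HH8, 786 at HH9, 4343 at HH11 and 7444 at HH14. They went on with 8048 at HH16, 11057 at HH19 and 16412 at HH24, then 16815 at HH27, 23288 at HH32, 30183 at HH34 and 42342 at HH38. The gene climbed at HH2, had similar values between HH4 and HH8, and climbed again at HH11. The rise from HH1 to HH16 was 6.83 ± 0.25, adjusted p = 1.09e-15, and from HH16 to HH38 2.40 ± 0.25, adjusted p = 4.8e-08. COL1A2 read 48.0 and 116 at HH1, 10098 and 10577 at HH16 and 37615 and 42728 at HH38. Over the stages it averaged 74.5 at HH1, 478 at HH2, 5700.4 at HH4, 6285 at HH6, 4972 at HH8, 4161 at HH9, 6478 at HH11 and 9013 at HH14, followed by 10335 at HH16, 13354 at HH19 and 18062 at HH24, then 22820.2 at HH27, 26719 at HH32, 31748 at HH34 and 40090.4 at HH38. COL1A2 had gained most of its early rise by HH4, when its arrays read 5563 and 5841, and the arrays of HH2 and HH4 did not overlap. It rose by 7.12 ± 0.22, adjusted p = 6.38e-17 over the first part and by 1.96 ± 0.22, adjusted p = 1.49e-07 over the second.

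The signals of the type I chains did not change in step at the early stages. From HH2 to HH4, COL1A2 rose by 3.58 ± 0.22, adjusted p = 3.42e-11, while COL1A1 changed by 0.94 ± 0.25 (adjusted p = 0.00868), short of 2-fold. From HH9 to HH11, COL1A1 rose by 2.47 ± 0.25, adjusted p = 3.66e-07, while COL1A2 changed by 0.64 ± 0.22 (adjusted p = 0.0619). Within each array, log2 COL1A1 minus log2 COL1A2 was 0.16 and -0.32 at HH1, -3.31 and -3.54 at HH4, -3.71 and -3.78 at HH6, -3.53 and -2.88 at HH8 and -0.58 and -0.58 at HH11. It then stayed between -0.47 and 0.11 from HH14 to HH38. The difference shows unequal change of 2 probe sets, not the ratio of the transcripts. The next brightest probe set of COL1A2 went from 69.3 at HH1 to 2398 at HH4 and 2812 at HH11, an early rise as well. Its other tested probe sets, by falling mean signal, read 168, 331 and 382 at these stages, then 14.9, 95.9 and 141. The last ones read 52.6, 157 and 79.9, and 5.12, 3.02 and 16.3, where means under 25.4 lay below background. The size of the early COL1A2 rise thus differed between probe sets. COL1A1 has 1 probe set, so its course has no such check. The early COL1A2 rise coincided with that of markers of extraembryonic endoderm and liver, of which 3 of 4 rose from HH2 to HH4, against 7.61% of all genes. Their summed signal was 9488 to 10368 at HH2, 64324 to 66124 at HH4 and 10069 to 17365 at HH16. Of the 4, APOB was below background on both arrays of HH1 and of HH2. The part of these markers in the type I difference was not tested.

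**Figure D3:**
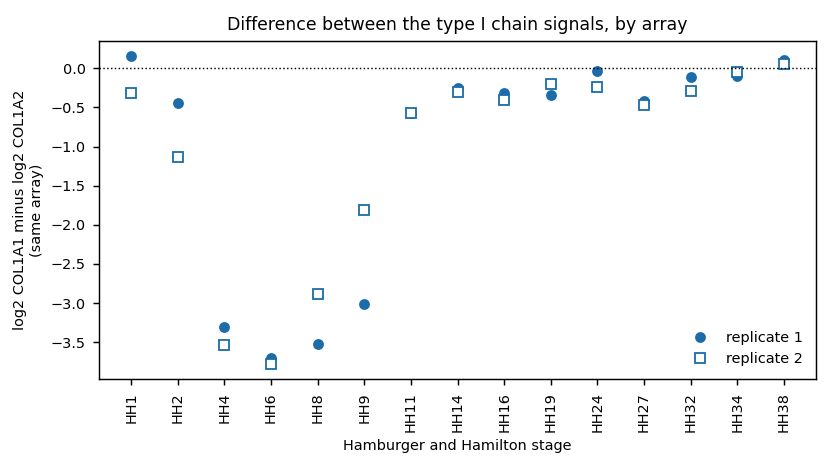
Difference between the log2 signals of COL1A1 and COL1A2 on the same array (vertical axis) for both replicates of each stage (horizontal axis). The dotted line marks 0. The arrays of HH4, HH6 and HH8 lie between -3.78 and -2.88, and those from HH14 on lie near 0.

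COL3A1, the chain of type III collagen of soft, stretchable tissue, rose in 4 steps in a row. Its arrays read 146 and 183 at HH4, 258 and 516 at HH6, 1032 and 809 at HH8, 2006 and 3799.9 at HH9 and 14333 and 15047 at HH11, and no array of one of these stages overlapped with the next. The last step, 2.41 ± 0.24, adjusted p = 2.9e-07, was the largest of the 4. The first 3 rested on single arrays. The HH6 call was lost without either HH4 array or HH6 replicate 2. The HH8 call was lost without HH6 replicate 1 or HH8 replicate 1, and the HH9 call without HH9 replicate 2. All 3 calls were also lost with the next brightest COL3A1 probe set. Those at HH8 and HH9 were lost with the gene's probe sets averaged as well. From 14568 at HH16 COL3A1 read lower at HH19 (9516), HH24 (10057) and HH27 (11556), none of these steps passing the test. It then reached 37465 and 41132 at HH38. Over the whole parts it rose by 6.80 ± 0.24, adjusted p = 6.43e-16, and by 1.43 ± 0.24, adjusted p = 3.91e-05. COL5A1 and COL5A2 encode chains of type V collagen, which lies inside type I fibrils and limits their width. COL5A1 read 211 and 247 at HH1, 3576 and 3877 at HH16 and 17709.9 and 15904 at HH38, and COL5A2 read 182 and 208, 1276 and 1309.8 and 12435 and 12700.5 at the same stages. COL5A1 rose by 4.03 ± 0.20, adjusted p = 1.56e-13, then by 2.17 ± 0.20, adjusted p = 6.77e-09. COL5A2 rose by 2.73 ± 0.20, adjusted p = 1.24e-10, and then by 3.28 ± 0.20, adjusted p = 1.06e-11. The courses of COL5A1 and COL5A2 correlated at r = 0.949 over 15 stage means, COL1A1 and COL3A1 at r = 0.939, and COL1A1 and COL1A2 at r = 0.884. These are descriptions, since the genes share arrays and all run upwards. COL3A1 and COL5A2 are neighbours with 0 protein-coding genes between them in the gene table of GRCg7b, and their courses correlated at r = 0.863.

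**Figure D4:**
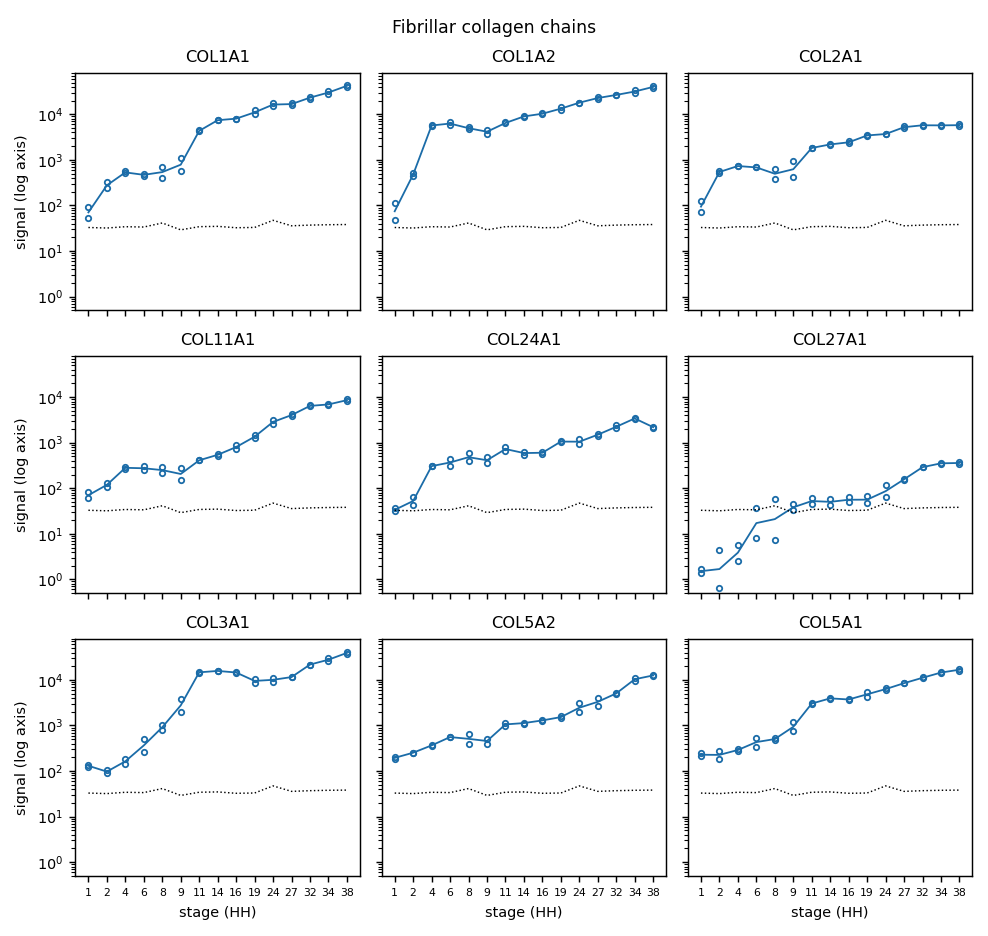
Signals of the 9 fibrillar collagen genes (vertical log axes) over the 15 stages (horizontal axes). Circles are arrays, lines join stage means, and the dotted line is the higher background of the stage's 2 arrays. COL1A2 is near its HH11 level by HH4, COL3A1 climbs from HH4 to HH11, and COL27A1 starts below background.

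The chains of cartilage fibrils rose early and again late. COL2A1, the main collagen of cartilage and also made by notochord and early epithelia, read 71.7 and 124 at HH1, 567 and 521 at HH2, 413 and 946 at HH9, 1861 and 1801 at HH11, 2567 and 2311 at HH16 and 5473 and 6129 at HH38. It rose at HH2 by 2.53 ± 0.26, adjusted p = 1.23e-07, and at HH11 by 1.55 ± 0.26, adjusted p = 0.000202, the second call being lost without HH9 replicate 1. The COL2A1 calls at HH11 and from HH16 to HH38 were also lost with the next brightest probe set and with the gene's probe sets averaged. Averaging also lost the HH2 call of COL2A1. After HH27 its stage means stayed between 5231 and 5791. COL11A1, a chain of type XI collagen, the core of cartilage fibrils, read 60.2 and 82.2 at HH1, 297 and 266 at HH4, 879 and 730.3 at HH16 and 9051 and 8151 at HH38. It rose at HH4 by 1.24 ± 0.20, adjusted p = 7.77e-05, and at HH24 by 1.08 ± 0.20, adjusted p = 0.00437, a call lost without HH19 replicate 2 or HH24 replicate 2. COL24A1 and COL27A1 are the remaining fibrillar genes. In the mouse COL24A1 is known from bone and COL27A1 from cartilage. COL24A1 read 42.8 and 64.5 at HH2, 306 and 306 at HH4 and 3262 and 3559.9 at HH34, its highest stage, and rose at HH4 by 2.54 ± 0.21, adjusted p = 5.34e-09. It rose by 4.17 ± 0.21, adjusted p = 2.46e-13 over the first part, and by 1.87 ± 0.21, adjusted p = 1.82e-07 over the second. COL27A1 was below background on all arrays from HH1 to HH4, read 49.3 and 63.4 at HH16 and 385 and 334 at HH38. The rise to HH16 was at least 1.82-fold (adjusted p = 2.12e-05) and that to HH38 was 2.68 ± 0.85, adjusted p = 0.0141, and the second call was lost without HH16 replicate 1 or either HH38 array.

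Of the 10 FACIT genes, 7 rose and 0 fell from HH1 to HH16, and 7 rose and 0 fell from HH16 to HH38, as also from HH16 to HH34. In these comparisons 16.7%, 14.5% and 11.9% of all genes rose and 10.5%, 8.92% and 5.27% fell. The median changes of the FACIT genes were 2.24 (1.46 with 3 genes at their bound) and 2.68. Type IX collagen coats cartilage fibrils, and COL9A1 and COL9A3 encode 2 of its chains. COL9A1 read 44.9 and 62.9 at HH1, 411 and 512 at HH16, 1614 and 1884 at HH24, 5190.1 and 4758 at HH27 and 10595 and 9184 at HH38. It rose at HH2 (1.69 ± 0.18, adjusted p = 1.58e-07), at HH24 (1.17 ± 0.18, adjusted p = 0.000667) and at HH27 (1.51 ± 0.18, adjusted p = 3.53e-05). With the next brightest COL9A1 probe set these calls and that from HH1 to HH16 were lost, while that from HH16 to HH38 stayed. The HH24 call was also lost with the gene's probe sets averaged. COL9A3 read 53.3 and 128 at HH9, 523 and 484 at HH11, 655 and 639 at HH16 and 7552 and 6235 at HH38. Its stage means lay between 65.6 and 82.5 until HH9. It rose at HH11 by 2.61 ± 0.24, adjusted p = 1.2e-07, and rose at HH27 by 1.16 ± 0.24, adjusted p = 0.0088. The HH27 call was lost without HH24 replicate 1 or either HH27 array. From HH16 to HH38, COL9A1 rose by 4.43 ± 0.18, adjusted p = 9.56e-15, COL9A3 by 3.41 ± 0.24, adjusted p = 1.34e-10 and COL11A1 by 3.42 ± 0.20, adjusted p = 5.58e-12, while COL2A1 rose by 1.25 ± 0.26, adjusted p = 0.000391. Over 15 stage means, COL9A1 correlated at r = 0.974 with COL11A1, 0.938 with COL9A3 and 0.902 with COL2A1. COL9A2, the third chain, was above background on 11 arrays and was called in neither part. Its stage means lay between 3.92 and 53.4. Among 8 tested cartilage markers 4 rose and 0 fell from HH1 to HH16 and 6 rose and 0 fell from HH16 to HH38 (5 and 0 to HH34). The shares of all genes that rose were 16.7%, 14.5% and 11.9%. SOX9 read lower at HH38 than at HH16, with stage means of 235 and 369, and was not called there. EPYC, a small proteoglycan, read 0.677 and 0.783 at HH16 and 2257 and 1733 at HH38 and rose at least 65.0-fold (adjusted p = 4.84e-08). ACAN, the large cartilage proteoglycan, rose at least 11.0-fold (adjusted p = 5.99e-05), and MATN1, a matrilin, by 4.66 ± 0.96, adjusted p = 0.000417. At HH4, where the stage mean of HAPLN1 was 4769, the summed signal of the list was 4823 to 6350. It was 5806 to 5989 at HH16 and 15176 to 17456 at HH38. Its part in the rise of the cartilage collagens was not tested.

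COL12A1 and COL14A1, which sit on the fibrils of tendon, skin and other dense tissue, rose in both parts. COL12A1 read 207 and 184 at HH1, 1451 and 1503 at HH16 and 16334 and 14631 at HH38. Its means ran through 195 at HH1, 221 at HH2, 111 at HH4, 122 at HH6, 127 at HH8, 199.8 at HH9, 1092 at HH11 and 1466 at HH14, and later 1477 at HH16, 2157 at HH19 and 4732 at HH24, then 8252 at HH27, 10378 at HH32, 12934 at HH34 and 15459 at HH38. The gene lay lower at HH4, HH6 and HH8 than at HH1, by less than 2-fold, and then rose at HH11 by 2.45 ± 0.16, adjusted p = 1.42e-09. It rose again at HH24 (1.13 ± 0.16, adjusted p = 0.00043). COL14A1 read 53.6 and 44.0 at HH1, 1957 and 1917 at HH16 and 14742 and 14987 at HH38. Its stage means were 48.6 at HH1, 129 at HH2, 421 at HH4, 444 at HH6, 507 at HH8, 444 at HH9, 1026 at HH11 and 1828 at HH14, and later 1937 at HH16, 2479 at HH19 and 2957 at HH24, then 3894 at HH27, 6445 at HH32, 9486 at HH34 and 14864 at HH38. Unlike COL12A1 it was called from HH2 on, with rises at HH2 (1.41 ± 0.13, adjusted p = 4.68e-08), HH4 (1.70 ± 0.13, adjusted p = 2.08e-09) and HH11 (1.21 ± 0.13, adjusted p = 1.38e-06). Its later stage means each lay above the one before. The next brightest COL14A1 probe set instead went from 193 at HH1 to 298 at HH16 and 2881 at HH38. With it the calls at HH2, HH4, HH11 and from HH1 to HH16 were lost. Another probe set went from 6.44 at HH1 to 487 at HH16 and was called higher. With the gene's probe sets averaged the HH2 change reversed. Over the parts COL12A1 rose by 2.92 ± 0.16, adjusted p = 1.3e-12, and by 3.39 ± 0.16, adjusted p = 2.52e-13, and COL14A1 by 5.32 ± 0.13, adjusted p = 2.62e-18, and by 2.94 ± 0.13, adjusted p = 1.01e-13.

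Of the other FACIT genes, COL20A1, known from the connective tissue of the chick embryo, stayed between 58.1 and 97.1 up to HH27, and then read 257 and 342 at HH32, 495 and 553 at HH34 and 2411 and 2343 at HH38. It rose from HH16 to HH38 by 4.93 ± 0.37, adjusted p = 2.27e-10. The HH38 arrays lay above all others, and the step from HH34 to HH38 was 2.18 ± 0.37, adjusted p = 0.000258. COL21A1 read 34.6 and 25.8 at HH1, 74.5 and 103 at HH16 and 499.6 and 434 at HH38. It rose at least 2.60-fold to HH16 (adjusted p = 0.000103) and by 2.41 ± 0.29, adjusted p = 3.53e-07 to HH38. The other tested COL21A1 probe set was called in neither part, with 6.47 at HH1, 28.8 at HH16 and 149 at HH38. COL22A1, known from the junctions of muscle and tendon, was below background at HH1 and HH2 and read 67.1 and 41.2 at HH4, 58.4 and 128 at HH16 and 456 and 378 at HH38. Its rise was at least 2.81-fold to HH16 (adjusted p = 1.34e-08) and 2.27 ± 0.47, adjusted p = 0.000383 from there to HH38. COL19A1 read 29.9 and 65.1 at HH1, 123 and 115 at HH16 and 183 and 196 at HH38, and rose to HH16 by 1.43 ± 0.52, adjusted p = 0.0298, a call lost without HH1 replicate 1 or either HH16 array. It neighbours COL9A1 with 0 protein-coding genes between them, and their courses correlated at r = 0.678. COL16A1 had stage means from 26.8 to 105 and changed by 0.33 ± 0.64 and -0.56 ± 0.64 (adjusted p = 0.734 and 0.543). Its other tested probe set instead went from 3.68 at HH1 to 29.3 at HH16 and 199.1 at HH38 and was called higher in both parts.

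Type IV collagen is built from several chains, encoded in neighbouring pairs of genes, and the pairs are described in turn. In GRCg7b, COL4A1 and COL4A2, COL4A3 and COL4A4, and COL4A5 and COL4A6 each had 0 protein-coding genes between them. Of the 6 genes, 3 rose and 1 fell from HH1 to HH16, and 3 rose and 2 fell from HH16 to HH38. From HH16 to HH34, 1 rose (COL4A4) and 2 fell. Of all genes, 16.7%, 14.5% and 11.9% rose in these comparisons and 10.5%, 8.92% and 5.27% fell. The type IV fall to HH16 and rise to HH34 lay near these shares. COL4A5 and COL4A6 were highest between HH8 and HH9 and then declined. COL4A5 read 1715 and 2231 at HH1, 6477 and 6055 at HH9, 4217 and 4762 at HH16 and 1643 and 1489 at HH38. The means by stage were 1956 at HH1, 2772 at HH2, 4487 at HH4, 4978 at HH6, 5965 at HH8, 6262 at HH9, 5984 at HH11 and 5544 at HH14, followed by 4481 at HH16, 3132 at HH19 and 2128 at HH24, then 1770.0 at HH27, 1133 at HH32, 1163 at HH34 and 1564 at HH38. COL4A5 rose by 1.20 ± 0.11, adjusted p = 6.24e-09, and then fell by 1.52 ± 0.11, adjusted p = 1.93e-10. COL4A6 read 121 and 118 at HH1, 306 and 377 at HH8, 213 and 227 at HH16 and 94.1 and 75 at HH38. It changed by 0.88 ± 0.23 to HH16 (adjusted p = 0.00297), short of 2-fold, and fell by 1.39 ± 0.23, adjusted p = 3e-05 from there. COL4A1 and COL4A2, the chains of most basement membranes, were first called higher than HH1 at HH9 and HH2 and were highest at HH38. COL4A2 read 511 and 744 at HH1, 2053 and 2417 at HH16 and 6139 and 5871 at HH38. Over the stages it averaged 616 at HH1, 1347 at HH2, 2068 at HH4, 2306 at HH6, 2908 at HH8, 2772 at HH9, 2654 at HH11 and 2852 at HH14, followed by 2228 at HH16, 2246 at HH19 and 2566 at HH24, then 2359.7 at HH27, 2673 at HH32, 3412 at HH34 and 6003 at HH38. COL4A2 rose by 1.85 ± 0.14, adjusted p = 1.32e-10, and by 1.43 ± 0.14, adjusted p = 1.24e-08, and its first step, at HH2, was 1.13 ± 0.14, adjusted p = 1.32e-06, a call lost without HH1 replicate 1. COL4A1 read 289 and 396 at HH1, 911 and 929 at HH16, 1345 and 1402 at HH34 and 2875 and 2626 at HH38. It rose by 1.44 ± 0.17, adjusted p = 2.5e-07, and by 1.58 ± 0.17, adjusted p = 8.09e-08. The 2-fold step of COL4A1 from HH34 to HH38 was lost without HH34 replicate 1 or HH38 replicate 1. With the next brightest COL4A1 probe set, or with the gene's probe sets averaged, this step and the rise from HH16 to HH38 were both lost. That probe set read 96.0 at HH16 and 124 at HH38. For COL4A1 and COL4A2 the second rise rested on HH38: from HH16 to HH34 the changes were 0.58 and 0.62, short of 2-fold. Over 15 stage means the courses of COL4A5 and COL4A6 correlated at r = 0.950, those of COL4A1 and COL4A2 at r = 0.854, and those of COL4A3 and COL4A4 at r = -0.107.

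COL4A3 and COL4A4 are chains known from the filter of the adult kidney. COL4A4 had stage means of 54.9 at HH1, 69.9 at HH2, 146 at HH4, 106 at HH6, 88.3 at HH8, 69.5 at HH9, 49.2 at HH11 and 31.4 at HH14, followed by 10.9 at HH16, 35.4 at HH19 and 47.8 at HH24, then 75.3 at HH27, 84.0 at HH32, 65.2 at HH34 and 85.3 at HH38. It read 56.0 and 53.8 at HH1, 14.4 and 8.33 at HH16 and 72.1 and 101 at HH38, and both HH14 and both HH16 arrays were below background. It fell at least 1.80-fold from HH1 to HH16 (adjusted p = 0.000178) and rose at least 2.80-fold from HH16 to HH38 (adjusted p = 1.15e-05). The fall was no longer called when signals were raised to background. COL4A3 had stage means from 24.7 to 116, exceeded background on 22 arrays and was called in neither part, with changes of -0.56 ± 0.80 and 0.31 ± 0.80 (adjusted p = 0.625 and 0.806). The multiplexins COL15A1 and COL18A1 lie at basement membranes and carry sugar chains, and the end of COL18A1 is known as endostatin. COL18A1 read 4146 and 4194 at HH1, 10197 and 10314 at HH11, 8721 and 9129.6 at HH16 and 4161 and 3729 at HH38. Its means ran through 4170.1 at HH1, 4838 at HH2, 7733 at HH4, 8996 at HH6, 8649.7 at HH8, 9683 at HH9, 10255 at HH11 and 9030.2 at HH14, followed by 8923 at HH16, 7087 at HH19 and 6410.2 at HH24, then 4993 at HH27, 3761 at HH32, 4502 at HH34 and 3939 at HH38. Like COL4A5, COL18A1 was highest in the middle of the course, at HH11. It rose by 1.10 ± 0.10, adjusted p = 2.52e-09, and fell by 1.18 ± 0.10, adjusted p = 1.1e-09. From HH16 to HH34 the change was -0.99, just short of 2-fold. COL15A1 moved the other way late. It read 26.0 and 13.7 at HH16, 117 and 62.0 at HH27, 113 and 132 at HH34 and 295 and 257 at HH38. Its stage means were 6.46 at HH1, 18.3 at HH2, 10.8 at HH4, 7.42 at HH6, 31.9 at HH8, 17.0 at HH9, 1.78 at HH11 and 20.4 at HH14, followed by 18.9 at HH16, 23.8 at HH19 and 26.0 at HH24, then 85.3 at HH27, 107 at HH32, 122 at HH34 and 275 at HH38. Until HH19 COL15A1 exceeded background on 1 array, at HH4, so its course there has no order. From HH16 to HH38 it rose at least 9.05-fold (adjusted p = 0.00439).

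**Figure D5:**
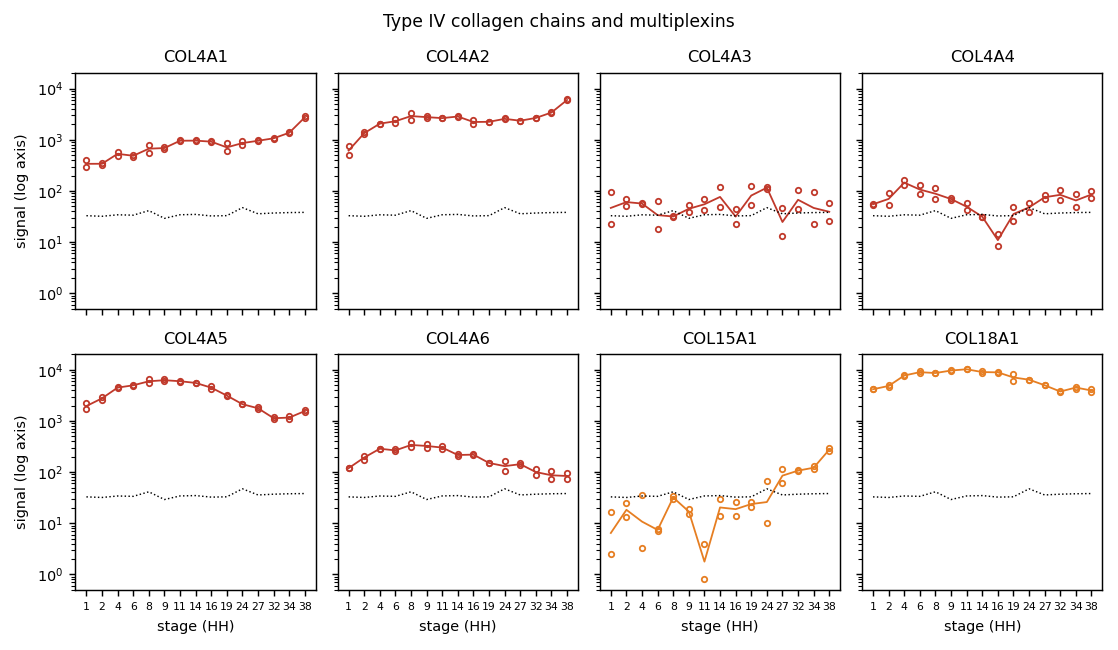
Signals of the 6 type IV chains and of COL15A1 and COL18A1 (vertical log axes) over the 15 stages (horizontal axes). Circles are arrays, lines join stage means, and the dotted line is the higher background of the stage's 2 arrays. COL4A5, COL4A6 and COL18A1 are highest between HH8 and HH11, COL4A1 and COL4A2 are highest at HH38, and COL15A1 leaves background at HH27.

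Whole embryos also hold the epithelium and endothelium that basement membranes underlie. Of 4 endothelium markers, 4 rose from HH1 to HH16 and 1 rose from HH16 to HH38 as to HH34. Of all genes 16.7%, 14.5% and 11.9% rose in these comparisons. The summed endothelium signal was 150.1 to 156 at HH1, 3898 to 4681 at HH16 and 6320.4 to 6509.7 at HH38. CDH5, the cadherin of vessel lining, rose at least 84.9-fold to HH16 (adjusted p = 3.5e-14) and changed by 0.49 ± 0.37 after it (adjusted p = 0.336). Of 4 tested epidermis markers, 2 rose in each part (1 from HH16 to HH34), against the same shares of all genes. KRT5, a keratin of the basal layer, read 53.0 and 29.8 at HH16 and 4007 and 4145 at HH38. The summed epidermis signal was 1698 to 1815 at HH34 and 8995 to 9059 at HH38. CDH5, KDR and TEK were below background on both HH1 arrays, TEK on both HH2 arrays and KRT5 on both HH8 arrays. The part of these tissues in the courses of COL4A1, COL4A2 and COL17A1 was not tested.

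Of the 4 beaded filament genes, COL6A1, COL6A2 and COL6A3 rose in both parts and COL6A6 was called in neither. Type VI collagen forms fine filaments around cells of muscle, cartilage and connective tissue. With HH34 in place of HH38 the count of the second part was also 3. The shares of all genes that rose were 16.7%, 14.5% and, to HH34, 11.9%. The median change of the 4 was 2.33 to HH16 and 3.66 to HH38. COL6A1 had stage means of 66.0 at HH1, 76.5 at HH2, 108 at HH4, 116 at HH6, 159 at HH8, 145 at HH9, 129 at HH11 and 267 at HH14, followed by 323 at HH16, 599.5 at HH19 and 1421 at HH24, then 2097 at HH27, 3644 at HH32, 4771 at HH34 and 8295 at HH38. It read 73.7 and 59.2 at HH1, 381 and 274 at HH16 and 8625 and 7978 at HH38. It rose by 2.29 ± 0.20, adjusted p = 2.18e-09, and then by 4.68 ± 0.20, adjusted p = 3.35e-14. COL6A2 had stage means of 49.2 at HH1, 29.2 at HH2, 68.9 at HH4, 68.0 at HH6, 74.8 at HH8, 76.5 at HH9, 125 at HH11 and 254 at HH14, followed by 253 at HH16, 304 at HH19 and 557 at HH24, then 945 at HH27, 2149 at HH32, 3655 at HH34 and 8824 at HH38. It read 31.6 and 76.5 at HH1, 274 and 233 at HH16 and 8487 and 9175 at HH38. It rose by 2.36 ± 0.33, adjusted p = 2.59e-06, and by 5.13 ± 0.33, adjusted p = 2.15e-11. A second COL6A2 probe set did not follow this course, with r = -0.69 between them over 15 stage means and 99.3 at HH38. COL6A3 read 166 and 208 at HH1, 1243 and 1351 at HH16 and 8457 and 7730.4 at HH38. It rose by 2.80 ± 0.15, adjusted p = 9.18e-13, and by 2.64 ± 0.15, adjusted p = 4.81e-12. COL6A1 and COL6A2, neighbours with 0 protein-coding genes between them, correlated at r = 0.982 over stage means, and COL6A1 and COL6A3 at r = 0.947. COL6A1 and COL6A3 both rose at HH14, by 1.05 ± 0.20, adjusted p = 0.00877 and by 1.08 ± 0.15, adjusted p = 0.000508. Both HH14 calls were lost without HH11 replicate 1, and that of COL6A1 also without HH14 replicate 2. COL6A6 exceeded background on 7 arrays, and its highest stage mean was 67.8 at HH38.

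The 4 transmembrane collagens included 1 early and 1 late riser. COL23A1 rose to HH16 and COL17A1 from HH16 to HH38, and COL13A1 and COL25A1 were called in neither part. In these parts 16.7% and 14.5% of all genes rose, and 11.9% did to HH34. COL17A1 was also called with HH34 in place of HH38. COL23A1 read 93.6 and 101 at HH1, 2001 and 2131 at HH16 and 1990.4 and 1781 at HH38. The means by stage were 97.1 at HH1, 162 at HH2, 1172 at HH4, 1524 at HH6, 1579 at HH8, 2091 at HH9, 2681 at HH11 and 2254 at HH14, followed by 2065 at HH16, 2027 at HH19 and 1772 at HH24, then 2277 at HH27, 2265 at HH32, 2452 at HH34 and 1883 at HH38. It rose at HH4 by 2.85 ± 0.15, adjusted p = 4.14e-12, so that from HH1 to HH16 the rise was 4.41 ± 0.15, adjusted p = 5.42e-16. From HH16 to HH38 the change was -0.13 ± 0.15 (adjusted p = 0.547). A second probe set, from 9.01 at HH1 to 211.6 at HH16, ended at 82.2 at HH38 and was called lower in the second part. COL17A1, a collagen of the hemidesmosome that anchors epidermal cells, read 158 and 124 at HH1, 278 and 214 at HH16 and 1479.5 and 1528 at HH38. Over the stages it averaged 140.0 at HH1, 209 at HH2, 127 at HH4, 134 at HH6, 129 at HH8, 96.8 at HH9, 153 at HH11 and 232 at HH14, followed by 244 at HH16, 343 at HH19 and 403 at HH24, then 578 at HH27, 741 at HH32, 864 at HH34 and 1504 at HH38. COL17A1 changed by 0.80 ± 0.23 to HH16 (adjusted p = 0.00746), short of 2-fold, and rose by 2.62 ± 0.23, adjusted p = 4.16e-09 after it. From HH14 on each stage mean lay above the one before. COL13A1, known from the junction of nerve and muscle, had stage means from 369 to 919 and changes of 0.97 ± 0.38 and -0.48 ± 0.38 (adjusted p = 0.0464 and 0.354). Its next brightest probe set instead went from 56.3 at HH1 to 194.9 at HH16 and 713 at HH38 and was called higher in both parts. COL25A1, known from neurons, exceeded background on 20 arrays and had stage means from 20.0 to 78.5. Its changes were 1.13 ± 0.62 and 0.31 ± 0.62 (adjusted p = 0.155 and 0.746).

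Of the 3 network-forming genes, COL8A1 rose in both parts, COL10A1 rose in the second and COL8A2 fell in the first. The shares of all genes that rose were 16.7% and 14.5%, and 10.5% fell in the first part. COL10A1 marks cartilage that is enlarging before it turns to bone. It was below background on both arrays of each stage up to HH32 and read 43.8 and 87.1 at HH34 and 1075 and 978 at HH38. Its means ran through 5.06 at HH1, 1.64 at HH2, 13.6 at HH4, 8.23 at HH6, 18.6 at HH8, 7.17 at HH9, 13.2 at HH11 and 1.69 at HH14, followed by 16.8 at HH16, 3.80 at HH19 and 9.64 at HH24, then 13.2 at HH27, 26.6 at HH32, 61.7 at HH34 and 1025 at HH38, and those up to HH32 have no order. From HH16 to HH38 it rose at least 33.7-fold (adjusted p = 0.00108), and the HH38 arrays lay far above all others. With HH34 in place of HH38 COL10A1 was not called (adjusted p = 0.333), and COL8A1 was. All 5 tested bone markers rose over the same part, and 3 did to HH34, against 14.5% and 11.9% of all genes. IBSP, a protein of mineralizing bone, was below background on 1 of the 2 HH16 arrays, read 193 and 307 at HH34 and 969.5 and 749 at HH38 and rose at least 27.3-fold (adjusted p = 0.000303). RUNX2, the main bone transcription factor, rose at least 9.05-fold (adjusted p = 3.19e-05) and PHEX, a protease of bone cells, at least 7.64-fold (adjusted p = 0.000312). The summed signal of the 6 measured bone markers was 1286 to 1636 at HH34 and 3806 to 4057 at HH38, with ALPL below background at both. It was higher early, with 8207 to 8295 at HH4 and 10632 to 10670 at HH9. The stage means of SPP1 alone were 8103 at HH4, 10481 at HH9 and 2311 at HH38. The part of this list in the rise of COL10A1 was not tested. COL8A1 and COL8A2 encode the chains of type VIII collagen, known from the layer under the corneal endothelium and from vessels, and from HH1 to HH16 the first rose and the second fell. COL8A1 read 18.9 and 5.74 at HH9, 167 and 172 at HH11, 492 and 606 at HH16 and 2595 and 2380.2 at HH38. Its stage means were 13.6 at HH1, 5.50 at HH2, 17.8 at HH4, 8.72 at HH6, 18.0 at HH8, 10.4 at HH9, 169.6 at HH11 and 454 at HH14, followed by 546 at HH16, 877 at HH19 and 1253 at HH24, then 1881 at HH27, 1697 at HH32, 2252 at HH34 and 2485 at HH38, with all arrays up to HH9 below background. It rose at least 5.84-fold at HH11 (adjusted p = 5.37e-05), at least 17.7-fold from HH1 to HH16 (adjusted p = 1.08e-07) and by 2.19 ± 0.60, adjusted p = 0.00502 from HH16 to HH38. COL8A2 read 310.3 and 492 at HH1, 159 and 92.3 at HH16 and 146 and 117 at HH38 and fell by 1.69 ± 0.30, adjusted p = 6.46e-05 to HH16. It was called lower than HH1 at each stage from HH6 to HH38. After HH16 it changed by 0.11 ± 0.30 (adjusted p = 0.819). Over 15 stage means the courses of COL8A1 and COL8A2 correlated at r = -0.662. This r includes the COL8A1 means up to HH9, which lay below background and have no order.

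COL7A1, COL26A1 and COL28A1 belong to no larger class. COL7A1, the anchoring fibril of skin, exceeded background on 16 arrays, with stage means from 7.48 to 58.0 and no call in either part. COL26A1 read 79.0 and 57.5 at HH1, 73.6 and 71.6 at HH16 and 36.2 and 70.6 at HH38. The means by stage were 67.4 at HH1, 22.9 at HH2, 59.5 at HH4, 17.0 at HH6, 49.2 at HH8, 20.3 at HH9, 52.5 at HH11 and 20.7 at HH14, followed by 72.6 at HH16, 102 at HH19 and 121 at HH24, then 97.0 at HH27, 151 at HH32, 117 at HH34 and 50.5 at HH38. It was highest at HH32 and lower again at HH38, with changes of 0.11 ± 0.69 and -0.52 ± 0.69 (adjusted p = 0.925 and 0.604). COL28A1 read 33.5 and 51.1 at HH1, 32.5 and 3.86 at HH16 and 74.5 and 60.0 at HH38. Over the stages it averaged 41.4 at HH1, 39.4 at HH2, 45.0 at HH4, 34.9 at HH6, 32.8 at HH8, 27.8 at HH9, 28.9 at HH11 and 28.2 at HH14, followed by 11.2 at HH16, 27.7 at HH19 and 33.3 at HH24, then 18.9 at HH27, 34.0 at HH32, 23.7 at HH34 and 66.8 at HH38. COL28A1 was called higher at HH38 than at HH16, at least 2.19-fold (adjusted p = 0.0126), with 1 HH16 array well below the other. The call was lost without HH16 replicate 2 or HH38 replicate 1, and the gene had no stage effect.

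By onset, the first stage called higher than HH1, the genes fell into 4 groups and a remainder. All 14 comparisons share the HH1 arrays. An onset was found for 32 of the 41, against 35.5% of all genes. By HH4 14 had started, against 14.3% of all genes: COL1A1, COL1A2, COL2A1, COL4A2, COL9A1, COL14A1 and COL22A1 at HH2, and COL4A4, COL4A5, COL4A6, COL11A1, COL21A1, COL23A1 and COL24A1 at HH4. COL22A1 was below background on both HH1 and HH2 arrays, and both HH4 arrays were above it. COL27A1 was below background on both HH1 arrays and on 1 of the 2 HH6 arrays. From HH6 to HH9 there were 7 (5.63% of all genes), COL3A1, COL5A2, COL18A1 and COL27A1 at HH6, COL5A1 and COL6A1 at HH8 and COL4A1 at HH9. From HH11 to HH16 there were 6 (5.42%), COL6A2, COL6A3, COL8A1, COL9A3 and COL12A1 at HH11 and COL19A1 at HH16. After HH16 there were 5 (10.2%), COL17A1 at HH19, COL15A1 at HH27, COL20A1 and COL25A1 at HH32 and COL10A1 at HH34. The 9 with no onset were COL4A3, COL6A6, COL7A1, COL8A2, COL9A2, COL13A1, COL16A1, COL26A1 and COL28A1. An onset need not last: for COL4A4, COL4A5, COL4A6, COL18A1 and COL25A1 the call was not kept up to HH38. COL6A1 was called at every stage only from HH14, and COL19A1 only at HH38. All 9 fibrillar genes had started by HH8, and 5 of the 6 type IV genes by HH9. Of all genes, 14.3% started by HH4 and 5.63% from HH6 to HH9. With signals raised to background COL27A1 started at HH24 and COL22A1 at HH6. Of the genes with no onset, COL26A1 then gained one at HH32 and COL6A6 and COL7A1 at HH38. Onsets also moved under the other probe set rules, that of COL14A1 to HH4 with the mean and to HH32 with the second brightest. Of the 41, 23 kept their onset with the mean (31 tested) and 18 with the second brightest (24 tested). Genes not tested count there as without an onset. With the mean, COL1A2 moved to HH4, COL2A1 to HH6, COL3A1 to HH8 and COL9A3 to HH19, and COL13A1 gained an onset at HH8. With the second brightest, COL5A2 moved to HH2, COL6A2 to HH4, COL9A1 to HH8, COL8A1 to HH14 and COL27A1 to HH27. Under that rule COL13A1 gained an onset at HH4 and COL16A1 at HH2. COL4A1 started at HH11 under both other scalings, and COL4A4 lost its onset without HH4 replicate 2. COL10A1 started at HH38 without either HH34 array or under quantile normalization. COL25A1, which had no stage effect (adjusted p = 0.0969), started at HH34 without either HH32 array or under quantile normalization and between HH8 and HH27 in 6 other fits, and lost its onset without HH1 replicate 1. The FACIT genes were spread, with 4 by HH4, 3 from HH11 to HH16, 1 at HH32 and 2 with none. Without either HH1 array, 31 of the 41 had the same onset. Without HH1 replicate 1, COL4A1 moved to HH11, COL4A2 to HH4, COL6A2 to HH14, COL10A1, COL15A1 and COL19A1 to HH38, COL4A3 and COL6A6 gained one and COL4A4 and COL25A1 lost theirs. Without HH1 replicate 2, COL4A1, COL15A1 and COL20A1 moved to HH8, COL5A1 to HH6, COL5A2 and COL6A2 to HH4, COL10A1 to HH38, COL19A1 to HH14 and COL25A1 to HH24, and COL4A4 lost its onset.

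Between neighbouring stages there were 42 rises and 1 fall of collagen genes over 14 steps, which share an array pair with their neighbours. In each of the other steps than HH11, between 0.033% and 4.73% of all genes fell and 0 collagen genes did. Of the rises, 24 were at HH2, HH4 and HH11. At HH2 7 rose, against 6.01% of all genes (COL1A1, COL1A2, COL2A1, COL4A2, COL9A1, COL14A1 and COL22A1). COL22A1 was below background at both HH1 and HH2, and its change reversed to -0.11 when signals were raised to background. At HH4 8 rose, against 7.61% (COL1A2, COL6A2, COL8A1, COL11A1, COL14A1, COL22A1, COL23A1 and COL24A1), 5 without HH4 replicate 1. COL8A1 was below background at both HH2 and HH4, and its call was lost in 32 settings. At HH11 9 rose, against 2.78% of all genes. They were COL1A1, COL2A1, COL3A1, COL5A1, COL5A2, COL8A1, COL9A3, COL12A1 and COL14A1, and 5 of them are fibrillar. The 1 fall, of COL15A1 at HH11 (3.46% of all genes fell), lay wholly below background. The HH9 arrays differed for these genes: 8 of the 9, all but COL8A1, read higher on HH9 replicate 2 than on replicate 1, as did 22 of all 41. COL5A1, for example, read 741 and 1180.3 at HH9 and 3044 and 3022 at HH11. Without HH9 replicate 1 or 2 the HH11 count of calls in both directions stayed between 9 and 11, as it did without any other single array. From HH14 to HH38 the steps had 0 to 4 rises each. COL6A1 and COL6A3 rose at HH14 (0.174% of all genes), and 0 rose by limma's test at HH16 or HH19 (0.0248% and 0.537%). Unadjusted p lay under 0.05 there for 3 and 9 genes that read higher and for 3 and 6 that read lower. Of those that read lower, 3 were type IV genes at each of these steps. COL6A1, COL9A1, COL11A1 and COL12A1 rose at HH24 (0.727%) and COL9A1 and COL9A3 at HH27 (1.07%). COL6A2, COL20A1 and COL21A1 rose at HH32 (1.14%), COL5A2 at HH34 (0.033%) and COL4A1, COL6A2 and COL20A1 at HH38 (2.93%). The HH38 count was 1 without HH38 replicate 1, and the HH27 count 1 without HH24 replicate 1 or either HH27 array. The HH34 rise of COL5A2, 1.03 ± 0.20, adjusted p = 0.0396, was lost in 18 of the 30 fits without 1 array. At HH32, 1 rise was called without either HH27 array or HH32 replicate 1 and 0 without HH32 replicate 2. COL3A1 alone rose at HH6 (0.364%), HH8 (0.14%) and HH9 (0.174%).

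Of 8 tested markers of fibrous connective tissue, 2 rose at the HH11 step, against 2.78% of all genes. They were DCN, a proteoglycan that binds fibrils, from 89.9 and 259.7 at HH9 to 4024 and 4136 at HH11 (4.74 ± 0.54, adjusted p = 1.93e-06), and LUM, a related proteoglycan, from 409 and 854 to 7195 and 9166 (3.78 ± 0.87, adjusted p = 0.00473). Both also read higher on HH9 replicate 2. The summed signal of the 8 was 1906 to 2834 at HH9, 13954 to 15992 at HH11, 24007 to 24153 at HH16 and 69748 to 74225 at HH38. At HH11 the stage means of LUM, DCN and POSTN were 8121, 4079 and 1953, so the sum mostly follows these genes. The next, THBS4, was 444 there. From HH1 to HH16 6 of the 8 rose, from HH16 to HH38 7 and from HH16 to HH34 6, with 0 falls in any. The shares of all genes that rose were 16.7%, 14.5% and 11.9%. POSTN, a matrix protein of fibrous tissue, rose at least 92.0-fold to HH16 (adjusted p = 8.25e-14). TNMD, a marker of tendon cells, rose at least 90.9-fold from HH16 to HH38 (adjusted p = 5e-06) and FMOD, another fibril-binding proteoglycan, by 4.18 ± 0.67, adjusted p = 2.23e-05. Of the 4 markers of extraembryonic endoderm and liver, 0 rose and 1 fell at HH11, where 3.46% of all genes fell. It was APOA1, an apolipoprotein, which went from 30687 and 29422 to 11221 and 10304 and fell by 1.48 ± 0.17, adjusted p = 2.16e-06. By stage mean APOB went from 25599 to 14366 and TTR from 32895 to 28572, while ALB went from 74.6 to 113. The summed signal of the 4 was 88554 to 88708 at HH9 and 53769.9 to 53891 at HH11. Of the 3 tested notochord markers TBXT, SHH and FOXA2, FOXA2 fell at HH11 by 1.01 ± 0.18, adjusted p = 0.000441, and TBXT fell by 3.38 ± 0.21, adjusted p = 1.3e-11 from HH16 to HH38 (8.92% of all genes). The list did not move as 1: from HH1 to HH16 SHH rose and FOXA2 fell (16.7% and 10.5% of all genes). The stage means of SHH were 41.7 at HH1, 269 at HH16 and 240 at HH38. The part of any of these tissues in the collagen courses was not tested.

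Genes that fold, export, cross-link and break down collagen are counted against the 16.7% of all genes that rose to HH16 and the 14.5% that rose after it. From HH16 to HH34 11.9% of all genes rose, and 10.5% fell to HH16. Of 17 tested genes of folding and chain modification, 4 rose and 0 fell from HH1 to HH16, and 5 rose and 0 fell from HH16 to HH38, with median changes of 0.11 and 0.70. The first of these lay close to the 0.06 over all genes, and from HH16 to HH34 2 rose and 0 fell, rises near the share of all genes. SERPINH1, the collagen-specific chaperone, read 152 and 209.8 at HH1, 3563 and 3429 at HH16 and 10343 and 10319 at HH38. It rose by 4.29 ± 0.15, adjusted p = 7.27e-16, and by 1.56 ± 0.15, adjusted p = 1.83e-08. P3H3, a prolyl 3-hydroxylase, and PLOD1, a lysyl hydroxylase, rose to HH16 by 2.55 ± 0.21, adjusted p = 1.01e-09 and by 1.88 ± 0.14, adjusted p = 2.51e-10. After HH16, P4HA3, a prolyl 4-hydroxylase subunit, rose by 3.51 ± 0.45, adjusted p = 9.8e-07, and CRTAP, a partner of the prolyl 3-hydroxylases, by 1.29 ± 0.07, adjusted p = 3.65e-12. The shared subunit P4HB changed by -0.04 ± 0.08 and 0.06 ± 0.08 (adjusted p = 0.749 and 0.644), and its stage means lay between 12667 and 19953. Of 16 tested genes of secretion, processing and cross-linking, 7 rose and 2 fell to HH16, and 4 rose and 0 fell after it (2 and 0 to HH34). The falls to HH16 and the rises to HH34 lay near the shares of all genes. SEC24D, a coat protein of the vesicles that carry collagen, read 117 and 109.8 at HH1, 852 and 954 at HH16 and 3734 and 3716 at HH38. It rose by 2.99 ± 0.13, adjusted p = 1.59e-14, and by 2.05 ± 0.13, adjusted p = 1.89e-11. SPARC, a collagen-binding matrix protein, rose by 2.31 ± 0.12, adjusted p = 3.18e-13, and by 1.92 ± 0.12, adjusted p = 1.4e-11. Of the cross-linking enzymes, LOXL3 rose at least 3.33-fold to HH16 (adjusted p = 0.00087), and LOX read 10.8 and 4.65 at HH16 and 104 and 70.1 at HH38 and rose at least 2.81-fold (adjusted p = 0.0108). The 2 that fell to HH16 were MIA3, which loads collagen into vesicles, by 1.43 ± 0.26, adjusted p = 8.67e-05, and PCOLCE2, an enhancer of procollagen cleavage, by 1.53 ± 0.16, adjusted p = 4.14e-08. Of 14 tested receptors and breakdown genes, 9 rose and 0 fell to HH16, and 10 rose and 0 fell after it (9 and 0 to HH34). MMP2, a gelatinase, rose at least 179.8-fold to HH16 (adjusted p = 9.1e-14), MMP16, a membrane-bound metalloprotease, at least 14.8-fold (adjusted p = 1.43e-10) and ITGA2, a collagen-binding integrin, by 3.04 ± 0.25, adjusted p = 8.68e-10. After HH16 MMP13, a collagenase of cartilage and bone, read 1.25 and 1.10 at HH16 and 246 and 240.2 at HH38 and rose at least 7.98-fold (adjusted p = 3.11e-05). CTSK, the collagen-cutting protease of bone-resorbing cells, rose by 4.24 ± 0.53, adjusted p = 7.44e-07, and FAP, a fibroblast protease, at least 14.9-fold (adjusted p = 0.00164).

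Other probe sets of the same genes gave a check of these readings. For 24 genes there were 58 further tested probe sets. From HH1 to HH16, 30 gave the same call as the chosen one, 1 the opposite call (of COL8A1), 22 made no call where the chosen one did, 2 made a call where it did not, and 3 made no call, like it. From HH16 to HH38 the numbers were 32, 0, 18, 4 and 4. The opposite COL8A1 probe set read 73.2 at HH1 and 22.7 at HH16, while another followed the chosen course at r = 0.98. The 17 genes with no further tested probe set, COL1A1 and COL10A1 among them, have no such check.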

How the data were processed

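Total RNA of pooled whole chicken embryos was labelled with biotin (3' IVT) and hybridised to 1 Affymetrix Chicken Genome array per pool, per the labels. The deposited values are linear signal intensities from MAS5, per the submitters' processing notes, and the sources used here give neither its version nor its settings. On the values themselves, the mean trimmed by 2% at each end was 500 on all 30 arrays.

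Samples were grouped by the labelled stage, 2 arrays each. Log2 intensities of chicken probe sets above their array's 40th percentile on at least 2 arrays, 29600 in all, were fitted with limma 3.58.1 in R 4.3.3 as 15 stage means with a variance trend and 15 residual degrees of freedom, without a replicate term. P-values were adjusted by Benjamini-Hochberg within each contrast, and calls needed adjusted p below 0.05 and at least 2-fold. Shares of all genes are over 12103 genes with 1 probe set each, chosen as for the collagens. The fit was tested on simulated data.

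Genes come from GEO's platform annotation, and all 41 collagen symbols matched the RefSeq table of GRCg7b by gene ID, which was used for names and neighbours only. Background replaced dimmer values in lower-bound folds. All 41 genes are accounted for. Values at all stages are given for the 2 genes with the highest stage mean in each class, which chooses what is printed and compares no levels, and for genes called in opposite directions in the 2 parts, and 3 genes per pathway list were named by size of change. The members, classes and lists were chosen with earlier results of these data known. Same-numbered replicates did not deviate together: the median correlation of their deviations over 105 pairs of stages was 0.0037, and 0 pairs exceeded 0.1. Tried as alternatives were 2 other scalings, signals raised to background, no filter, no variance trend, array weights, a replicate block, other probe set rules, each array left out, and, added after seeing the data, HH38 replaced by HH34 or left out, also by class and list. Figures were drawn with matplotlib 3.10.9.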

Additional observations from a re-analysis of the deposited data

How the results depend on the processing

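Of 125 gene changes under 4814 comparisons of settings, 4632 kept their call or stayed without one, 165 lost the call, 7 gained one and 10 reversed. Direction was not compared where neither fit made a call, so reversals of uncalled changes are not counted. Having 2 arrays a stage and signals near background limits the precision. Without 1 array, the stage effect held for 33 to 35 genes, rises to HH16 numbered 24 to 25, falls to HH16 2 to 3, rises from HH16 to HH38 25 to 27, and onsets 31 to 33. Rises between neighbouring stages numbered 37 to 44 and falls 0 to 3. Calls per step ranged from 7 to 9 at HH2, 5 to 10 at HH4, 0 to 1 at HH6 and at HH8, 0 to 2 at HH9, 9 to 11 at HH11, 0 to 2 at HH14 and at HH19, 3 to 4 at HH24, 1 to 3 at HH27, 0 to 3 at HH32, 0 to 1 at HH34 and 1 to 4 at HH38.

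Falls between stages (1 as reported) numbered 2 under 75th percentile scaling, quantile normalization, signals raised to background or with probe sets averaged per gene, 4 with the second brightest probe set, and 0 with no filter, no variance trend or array weights. The falls to HH16 (2) numbered 1 with signals raised to background and 0 with the second probe set. Quantile normalization gave 1 call at HH14 and 5 at HH38, and signals raised to background gave 7 at HH38. With no variance trend, HH6, HH8 and HH34 had 0 calls and HH19 had 1, and with array weights HH19 had 1.

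The other probe set rules test fewer genes, 31 for the mean and 24 for the second brightest. With the mean, there were 23 rises between stages, 4 calls at HH2, 5 at HH11, 2 at HH24, 1 at HH27 and at HH19, and 0 at HH8, HH9, HH14 and HH34. With the second probe set, the stage effect held for 22, 16 rose from HH16 to HH38, 26 rises were called between stages, and calls numbered 1 at HH27, HH32 and HH38 and 0 at HH8, HH9 and HH14.

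Reversed with the second probe set were COL27A1 (-0.25) and COL6A2 (-0.32) from HH1 to HH16, COL13A1 (1.87), COL16A1 (2.77) and COL6A2 (-0.18) from HH16 to HH38, and COL6A2 from HH34 to HH38 (-0.25). With the mean, COL13A1 from HH16 to HH38 (1.49) and COL14A1 at HH2 (-0.43) reversed. With signals raised to background, COL22A1 at HH2 (-0.11) and COL15A1 at HH11 (0.19) reversed. The cause was not tested. Under 75th percentile scaling the median of all probe sets was -0.12 in both parts, against 0.04 and 0.05 as reported, and the COL18A1 rise to HH16 was not called. Under quantile normalization the medians were -0.05 and -0.15.

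With the replicate block the stage effect held for 34 genes, as without it, and it changed no count of collagen calls by over 1.5 times; it added a call for COL28A1 from HH1 to HH16. The numbers did not pair the samples. With both HH38 arrays left out, chosen after seeing the data, the stage effect held for 33.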
